A study of Rattus norvegicus with 170 samples.

Results

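The genes described here are 10 genes that mature β-cells are known to keep low or to switch on when they lose their identity: *Ldha*, *Slc16a1*, *Hk1*, *Hk2*, *Acot7*, *Rest*, *Aldh1a3*, *Sox9*, *Neurog3* and *Pdgfra*. They were chosen by name, each was found by its symbol, and they are 10 of the 24113 genes in the expression matrix. Pancreatic islets were taken from male 8-week-old wild-type Sprague Dawley rats, and whole hand-picked islets were kept in RPMI1640 medium with 10% FBS and 5.5 mM glucose. They received 0.1% DMSO, the vehicle, or 3 µM GNF4877 for 48 h. GNF4877 is an aminopyrazine that inhibits the kinases DYRK1A and GSK3B and was studied as a stimulus of β-cell division. Islets were then dispersed with trypsin, single cells were captured on a Fluidigm C1 chip, and cDNA was sequenced, giving 86 cells from DMSO-treated and 84 cells from GNF4877-treated islets.

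Expression was given as RPM, a read count normalised to all mapped reads of the cell, and transcripts of a gene were summed. A value listed at 0.01 RPM stood for no read and was set to 0. Cells with an *Ins1* level of at least 1000 RPM are called Ins1-high, 78 from DMSO-treated and 59 from GNF4877-treated islets. Cells with *Gcg*, the glucagon gene, at 1000 RPM or more and *Ins1* below that level are called alpha cells, 5 and 18. The other 3 and 7 cells entered no comparison. Mapped reads per Ins1-high cell ranged from 241604 to 2499138 with a median of 1235722 in DMSO, and from 324416 to 2171567 with a median of 1424573 in GNF4877-treated islets. The median number of genes read per Ins1-high cell was 8938 in DMSO and 7031 in GNF4877-treated islets, and 6621 and 4918.5 after each cell was thinned to 100000 reads.

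Each treatment was 1 sample, since no label ties cells to animals or cultures. Cells of a sample are not replicates, so no difference below was tested, and chip, lane and treatment cannot be told apart. Shares of cells carry exact Clopper-Pearson 95% intervals, which cover counting error only. Whether intervals overlap is a description, and neither shows nor excludes a difference between groups. Where no cell had a read, the limit given is 3 cells over the number of cells.

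The Ins1-high label was checked against β-cell markers. Of 14 listed markers 13 were found in the matrix, 13 were read in DMSO and 12 in GNF4877-treated Ins1-high cells. *Mafa*, a transcription factor of mature β-cells, was the exception, read in 5 DMSO cells and in no GNF4877 cell. Without *Ins1*, which defined the class, the 12 other markers summed to a median of 16076 RPM in DMSO and 16437 RPM in GNF4877 Ins1-high cells, against 1308 and 361 RPM in the alpha cells, and to as little as 483 and 129 RPM in single Ins1-high cells. In DMSO the *Ins1* threshold lay in a gap, the cells nearest to it having 494.5 RPM outside and 1784 RPM inside, and in GNF4877-treated islets the nearest cells had 813.3 and 1248 RPM. A second islet hormone of at least 1000 RPM was present in 25 of the DMSO and 4 of the GNF4877 Ins1-high cells, and doublets were not removed. The 8 alpha-cell markers summed to a mean of 44889 RPM in DMSO Ins1-high cells and 1362 RPM in GNF4877 Ins1-high cells, with medians of 733.9 and 482.3 RPM. *Ppy*, the pancreatic polypeptide gene, averaged 2429 and 747 RPM in the same order. The 6 endothelial markers summed to a mean of 13.6 and 3.93 RPM, and the 6 immune markers to 12.1 and 65.5 RPM.

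A few libraries stood apart by mesenchymal markers. The 10 markers of the list, all found in the matrix, summed to at least 1000 RPM in 5 of the 170 cells. These were the Ins1-high DMSO cells 24 (11808 RPM) and 46 (18414 RPM), the GNF4877 alpha cell 42 (3618 RPM), and DMSO cell 29 and GNF4877 cell 15, which are in neither class. In the remaining 135 Ins1-high cells the sum reached at most 55.3 RPM and had a median of 0.777 RPM. Over all Ins1-high cells the list averaged 390.0 RPM in DMSO, with all 10 genes read and *Col1a1* the most abundant, and 0.861 RPM in GNF4877-treated islets, where 9 were read and *Lum* was at 0. Results that rest largely on these cells are given with and without them, and the part of the mesenchymal transcripts in each was not tested.

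Mature β-cells send pyruvate from glycolysis into the mitochondria, so that insulin release follows glucose. Genes that would divert pyruvate to lactate or let it in from outside, or would trap glucose at low concentration, are kept low in these cells and are called disallowed. A loss of β-cell identity, known as dedifferentiation, is described by a return of progenitor genes such as *Neurog3* and *Sox9* and by the appearance of *Aldh1a3*.

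In Ins1-high cells, *Ldha*, the lactate dehydrogenase subunit that favours lactate formation, was higher in GNF4877-treated islets than in DMSO. *Pdgfra*, a growth factor receptor, was lower, as were *Sox9* and *Hk1*, which were read in few cells. The other 6 genes were within 2-fold. Ratios are log2 of the group means with 1 RPM added to each, a scale that understates the difference of low genes, and 2-fold is a log2 ratio of 1 in size. Thus 1 of 10 genes was higher and 3 of 10 were lower, against 5.92% and 10.7% of all 24113 genes. The median log2 ratio of the 10 genes was -0.08, and that of all genes was 0.00.

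*Ldha* was found in most Ins1-high cells of both treatments, but its level was spread widely. In DMSO it ranged from 0 to 1259 RPM with a median of 6.26 and a mean of 99.5 RPM. In GNF4877-treated islets it ranged from 0 to 1437 RPM with a median of 25.7 and a mean of 207 RPM. The ranges overlapped almost entirely, and the difference lay in how many cells had a high level. A level of 10 RPM or more was present in 30 DMSO cells (38.5%, 27.7 to 50.2%) and 39 GNF4877 cells (66.1%, 52.6 to 77.9%). At 100 RPM or more there were 18 DMSO cells and 25 GNF4877 cells.

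The log2 ratio of *Ldha* was 1.05, a mean 2.08-fold higher in GNF4877-treated islets. Single cells decided on which side of 2-fold it lay, since it was 0.90 without GNF4877 cell 38, the highest, and 1.29 without DMSO cell 24. Without DMSO cells 24 and 46, with their mesenchymal transcripts, it was 1.38. The ratio was above 0 in every setting tried, between 0.90 and 1.45, but lay under 1 in some, among them without the cells with a second hormone (0.91) and after thinning to 100000 reads (0.97). The share of cells with any *Ldha* read differed little, at 84.6% (74.7 to 91.8%) in DMSO and 88.1% (77.1 to 95.1%) in GNF4877-treated islets. After thinning it was 59.2% and 68.97%.

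**Figure D1:**
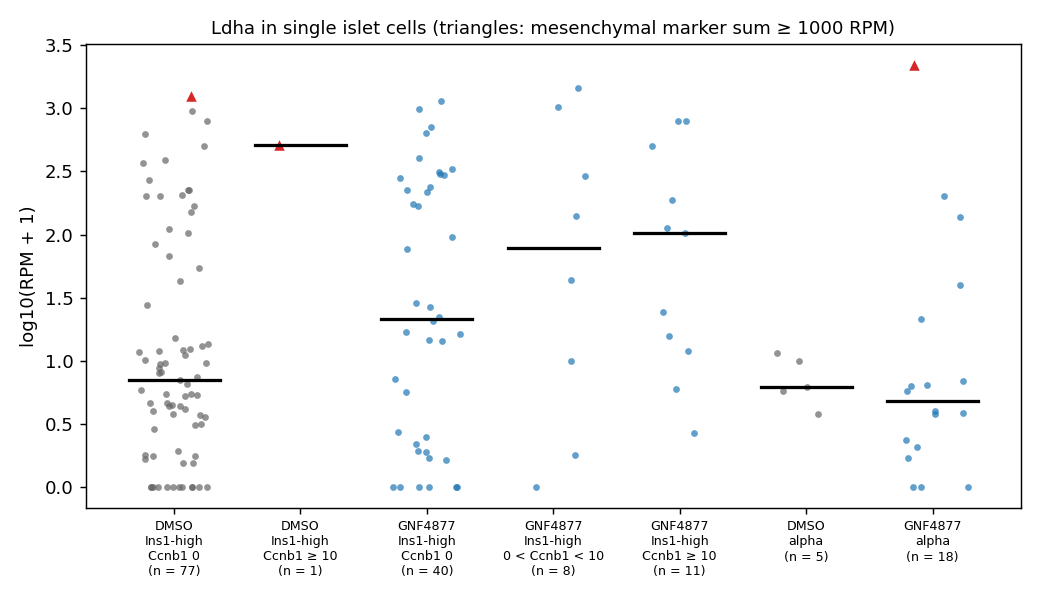
*Ldha* level of each cell as log10(RPM + 1), by treatment, cell class and *Ccnb1* level, with 1 point per cell, a bar at each median and triangles for cells with mesenchymal transcripts. Among Ins1-high cells, 30 of 78 DMSO and 39 of 59 GNF4877 cells lie at 10 RPM or more, and the ranges overlap.

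The genes with a pattern most like *Ldha* among Ins1-high cells with 1 hormone were 3 predicted loci. Spearman's rho with *Ldha* was 0.86 over 53 DMSO cells and 0.97 over 55 GNF4877 cells for *RGD1562690*, 0.82 and 0.96 for *LOC687068*, and 0.79 and 0.98 for *LOC100912965*. Cells of a treatment share a sample, and the correlation is a description out of 8119 genes compared. In cells with *Ldha* at 100 RPM or more, the ratio of *RGD1562690* to *Ldha* lay between 0.366 and 0.599 in 18 DMSO cells and between 0.330 and 0.640 in 25 GNF4877 cells. For *LOC687068* it lay between 0.0638 and 0.173 in DMSO and between 0.0645 and 0.169 in GNF4877 cells, and for *LOC100912965* between 0.225 and 0.5 and between 0.210 and 0.348. Whether these loci are near-identical copies that take reads from *Ldha* could not be told from the matrix, so the *Ldha* level is uncertain to that extent. With the 3 loci added to *Ldha*, the log2 ratio was 1.08.

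Genes of glycolysis followed *Ldha* less closely from cell to cell. The rho with *Ldha* was 0.54 in DMSO and 0.63 in GNF4877 cells for *Gapdh*, and 0.02 and 0.06 for the glucose transporter gene *Slc2a1*. For *Ins1*, which defined the class, it was 0.54 and 0.33. The number of genes read per cell had a rho with *Ldha* of 0.20 and -0.00, and the mapped reads -0.34 and 0.17.

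*Slc16a1* encodes MCT1, a carrier of lactate and pyruvate across the cell membrane. It was read in 14 DMSO Ins1-high cells (17.9%, 10.2 to 28.3%) and in 10 GNF4877 Ins1-high cells (16.9%, 8.44 to 28.97%). The medians were 0 and the highest cells had 173.6 and 144.9 RPM. The means of 5.86 and 5.22 RPM rested on few cells, and the shares overlapped. A level of 10 RPM or more was reached in 5 DMSO cells, namely 46 (173.6 RPM), 57 (156.0), 24 (78.8), 32 (24.3) and 85 (11.1). In GNF4877-treated islets it was reached in cells 50 (144.9 RPM), 79 (136.4) and 26 (20.7). The log2 ratio was -0.14, and 0.75 without DMSO cells 24 and 46.

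The other enzymes and carriers at the same step serve as a reference. *Ldhb*, the subunit that favours pyruvate, averaged 57.3 RPM in GNF4877 and 41.6 RPM in DMSO Ins1-high cells (log2 ratio 0.45). *Slc16a3*, which encodes the lactate carrier MCT4, averaged 0.516 and 2.13 RPM (log2 ratio -1.05, and -0.54 without DMSO cells 24 and 46).

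The hexokinases with high affinity for glucose, *Hk1* and *Hk2*, were almost without reads in Ins1-high cells. *Hk1* was read in 1 of 78 DMSO cells, cell 46, with 129 reads or 113.7 RPM, and that cell carried the mesenchymal transcripts. In GNF4877-treated islets 0 of 59 cells had a read, which allows a share of up to 5.08%. The log2 ratio of -1.30 therefore came from 1 cell, and was 0.00 without it. *Hk2* was read in DMSO cell 35 with 7 reads (5.59 RPM) and in GNF4877 cell 38 with 1 read (0.625 RPM). The glucose transporter gene *Slc2a2*, by contrast, averaged 1595 RPM in DMSO and 3042 RPM in GNF4877 Ins1-high cells.

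*Acot7*, which encodes an acyl-CoA thioesterase that frees fatty acids from coenzyme A, was nearly equal between treatments. It was read in 22 DMSO cells (28.2%, 18.6 to 39.5%) and 17 GNF4877 cells (28.8%, 17.8 to 42.1%). The medians were 0, the highest cells had 292.2 and 267.5 RPM, and the means were 18.1 and 17.2 RPM (log2 ratio -0.07). At 10 RPM or more there were 16 DMSO and 11 GNF4877 cells. In most cells the gene was either without reads or well above the level of a single read. Of the cells at 10 RPM or more, 7 of 16 in DMSO and 10 of 11 in GNF4877-treated islets also had *Ldha* at 10 RPM or more. Among all Ins1-high cells, *Ldha* was at that level in 30 of 78 and 39 of 59.

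*Rest* encodes a repressor of neuronal genes that β-cells are known to lack, as neurons do. No read of *Rest* was found in any of the 78 DMSO or 59 GNF4877 Ins1-high cells, which allows shares of up to 3.85% and 5.08%, nor in the 23 alpha cells. *Neurog3*, the transcription factor of endocrine progenitors, had no read in any of the 170 cells. These counts limit the cells with a read, not the cells that hold the transcript.

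*Aldh1a3*, a retinaldehyde dehydrogenase used as a marker of failing β-cells, was read in 1 cell. This was GNF4877 cell 78, with 11 reads or 16.6 RPM, a *Ccnb1* level of 391.6 RPM and an *Ldha* level of 187.5 RPM. No DMSO Ins1-high cell had a read, so the share there is at most 3.85%.

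*Sox9*, a transcription factor of ducts and pancreatic progenitors, was read in 7 DMSO Ins1-high cells (8.97%, 3.69 to 17.6%) and in 2 GNF4877 Ins1-high cells with 5 reads between them. The highest DMSO cells were 39 with 47.8 RPM, 41 with 33.1 RPM and 46 with 12.3 RPM, and every other Ins1-high cell was below 10 RPM. The means were 1.35 and 0.0775 RPM (log2 ratio -1.13). With Ins1-high set at 100 RPM the ratio was 0.43, the opposite direction. That setting also counted GNF4877 alpha cell 85 as Ins1-high. It was the only alpha cell of that treatment with *Sox9* reads, and the change of direction rests on it.

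*Pdgfra* encodes a receptor for platelet-derived growth factor that is known from mesenchymal cells and from young β-cells. It was read in 34 DMSO cells (43.6%, 32.4 to 55.3%) and 20 GNF4877 cells (33.9%, 22.1 to 47.4%), mostly by few reads. The medians were 0, and the highest values were 159.0 RPM in DMSO and 3.46 RPM in GNF4877-treated islets. The difference thus lay in a few DMSO cells. After thinning the shares were 11.8% and 1.72%. Only 5 DMSO cells reached 10 RPM, namely 24 (159.0 RPM), 58 (111.6), 46 (104.0), 6 (42.8) and 41 (11.96), and no GNF4877 Ins1-high cell did.

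The *Pdgfra* means of 6.10 and 0.569 RPM gave a log2 ratio of -2.18. Without DMSO cells 24 and 46 it was -1.28. Of the 5 DMSO cells at 10 RPM or more, 4 also had *Ldha* and 4 also had *Acot7* at that level, and 2 were the cells with mesenchymal transcripts. Among all 78 DMSO Ins1-high cells, 30 had *Ldha* and 16 had *Acot7* at that level.

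**Figure D2:**
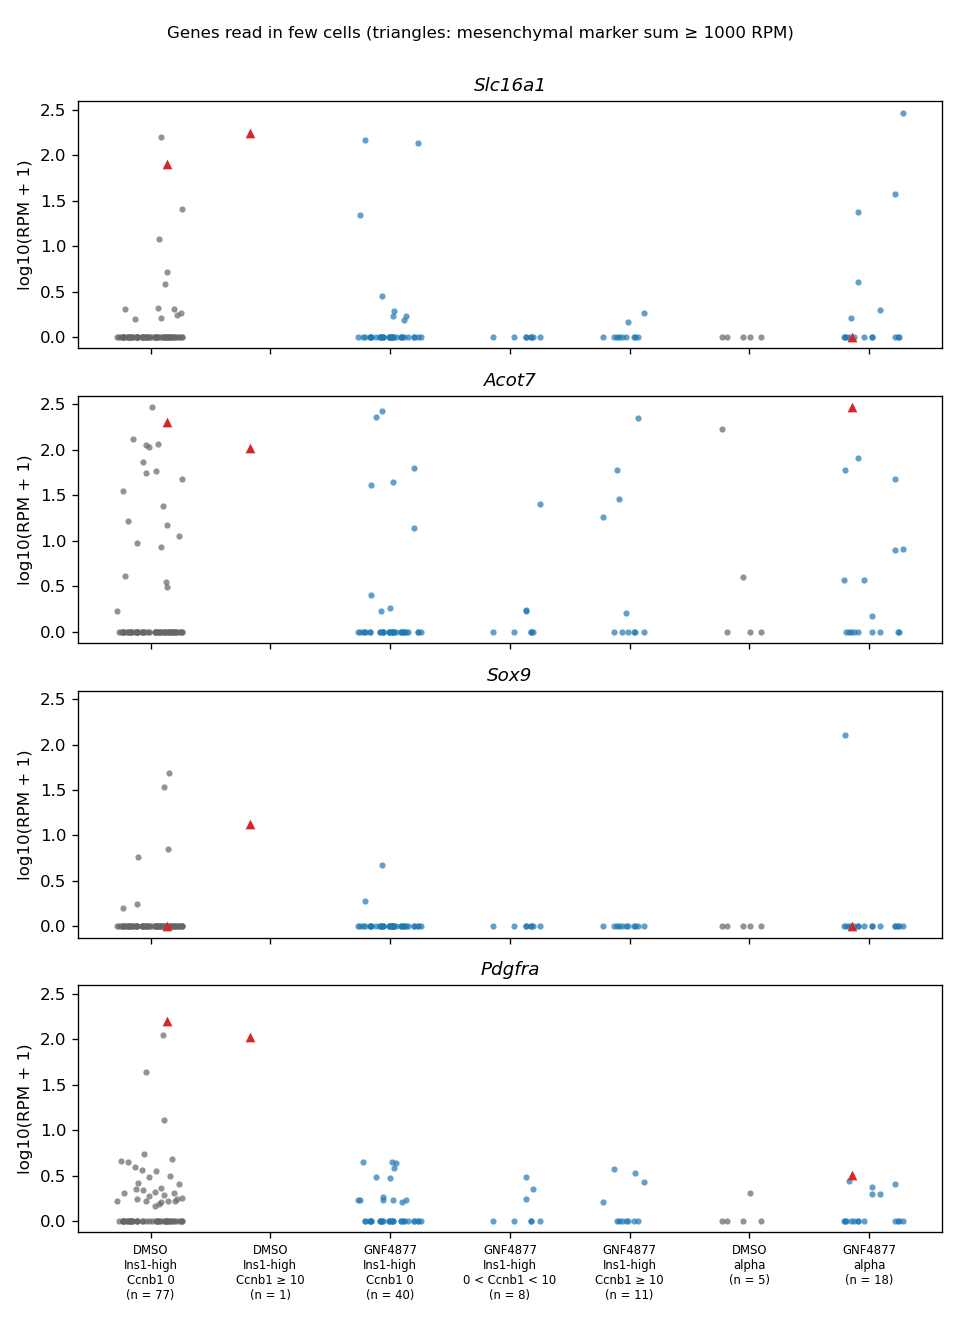
Level of *Slc16a1*, *Acot7*, *Sox9* and *Pdgfra* as log10(RPM + 1), by treatment, cell class and *Ccnb1* level, with 1 point per cell and triangles for cells with mesenchymal transcripts. *Pdgfra* reached 10 RPM in 5 DMSO Ins1-high cells and in none of the 59 GNF4877 Ins1-high cells.

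The comparison was next limited to Ins1-high cells without a read of *Ccnb1*, which encodes the M phase cyclin B1, 77 in DMSO and 40 in GNF4877-treated islets. *Pdgfra* was lower in the GNF4877 cells, and *Ldha* was higher by less than 2-fold. Counted as above, 0 of 10 genes were higher and 1 was lower, against 5.44% and 12.4% of all genes. *Ldha* had a median of 6.05 and a mean of 94.1 RPM in DMSO and a median of 20.4 and a mean of 169 RPM in GNF4877-treated islets (log2 ratio 0.83). It reached 10 RPM in 29 of 77 (37.7%, 26.9 to 49.4%) and 25 of 40 cells (62.5%, 45.8 to 77.3%), and these intervals overlapped. Without DMSO cell 24 the ratio was 1.09. *Pdgfra* averaged 4.83 and 0.552 RPM (log2 ratio -1.91, and -1.29 without DMSO cell 24). *Slc16a1* had a log2 ratio of 0.89, from 3.68 and 7.67 RPM, that was 0.14 without GNF4877 cell 50 and 1.70 without DMSO cell 57.

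Within GNF4877-treated islets, 11 Ins1-high cells had *Ccnb1* at 10 RPM or more and were compared with the 40 without a read. *Ldha* was read in each of the 11 cells. Its lowest, median and highest values were 1.69, 102 and 789 RPM, and 9 of 11 cells (81.8%, 48.2 to 97.7%) were at 10 RPM or more. The interval overlapped that of the 40 cells without *Ccnb1*. The means of 230 and 169 RPM gave a log2 ratio of 0.45, which was 0.05 without GNF4877 cell 16. With means of log2 values in place of means of RPM it was 1.28, past 2-fold. The 8 cells with *Ccnb1* reads below 10 RPM had a median *Ldha* level of 91.03 RPM.

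Islet cell markers also differed between the cells with *Ccnb1* and those without. The β-cell markers summed to a mean of 82289 and 42584 RPM, and the alpha-cell markers to 4285 and 637.7 RPM. *Ppy* was at 7.13 and 1042 RPM, and each group held 1 cell with a second hormone. *Gcg* was the most abundant alpha-cell marker in the cells with *Ccnb1*. A single cell can set such hormone means, and they are not reported here without those cells. Of the 10 genes 1 was higher and 1 was lower by 2-fold in the cells with *Ccnb1*, against 9.85% and 13.6% of all genes. The higher one was *Aldh1a3*, from GNF4877 cell 78 alone, with a log2 ratio of 1.33 that was 0.00 without it. The lower one was *Slc16a1*, read in 2 of 11 cells by 2 reads in all (mean 0.119 RPM) and in 8 of 40 cells without *Ccnb1* (mean 7.67 RPM). The shares of cells overlapped in their counting error, and the difference in mean lay in cells 50, 79 and 26. *Acot7* averaged 29.99 and 16.5 RPM (log2 ratio 0.82), and the ratio was -0.61 without GNF4877 cell 31. *Pdgfra* was at 0.676 and 0.552 RPM. *Hk1*, *Hk2*, *Rest* and *Neurog3* had no read in either group, and *Sox9* had none in the 11 cells. In DMSO the only Ins1-high cell with *Ccnb1* at 10 RPM or more was cell 46, so the same comparison was not made there.

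Alpha cells are the islet cells that release glucagon, and served as endocrine cells of another type. In GNF4877-treated islets the alpha cells had *Gcg* at a mean of 284382 RPM and *Ins1* at 78.4 RPM, and in DMSO 385702 and 235 RPM. Their *Slc2a2* level was far below that of Ins1-high cells, with log2 ratios of -8.08 in GNF4877-treated islets and -7.02 in DMSO. The *Ldha* level of alpha cells had a lower median than that of Ins1-high cells in both treatments, though part of the alpha cells were high. In the 5 DMSO alpha cells it lay between 2.78 and 10.5 RPM with a median of 5.20 RPM, and 5 of 5 cells had a read. In the 18 GNF4877 alpha cells it lay between 0 and 2189 RPM with a median of 3.88 RPM, and 5 reached 10 RPM.

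The alpha cell with the highest *Ldha* level was GNF4877 cell 42, which carried mesenchymal transcripts. The next highest cell had 201.7 RPM. Cell 42 held 83.5% of the group's sum, and the mean of 146 RPM was 25.4 RPM without it. The log2 ratio to Ins1-high cells was -0.51 in GNF4877-treated islets, and -2.98 without cell 42. In DMSO it was -3.76, where the difference of mean log2 values was only -0.82, since the medians of 5.20 and 6.26 RPM were close.

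In GNF4877-treated islets 3 of 10 genes were higher in alpha than in Ins1-high cells and 0 were lower, against 7.74% and 19.2% of all genes, and each of the 3 rested on 1 cell. *Sox9* (log2 ratio 2.89) was read in alpha cell 85 alone, with 53 reads or 125.7 RPM, and that cell had the duct gene *Spp1* at 1072 RPM. Without cell 85 the ratio was -0.11. *Hk1* (2.10) was read in cell 42 alone, at 59.4 RPM, and the ratio was 0.00 without it. *Slc16a1* (1.73) was read in 6 of 18 cells, and cell 84 with 289.5 RPM held 81.9% of the sum. Without cell 84 the ratio was -0.38.

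In DMSO 0 of 10 genes were higher in alpha cells and 4 were lower, against 6.32% and 26.8% of all genes. After rescaling to the listed reads without the hormones, those shares of all genes were 9.89% and 23.5%. Besides *Ldha* these were *Slc16a1*, *Pdgfra* and *Sox9*, with log2 ratios of -2.78, -2.55 and -1.23. Only 5 alpha cells were available, so that 0 of 5 cells with a read of *Slc16a1* or *Sox9* allows a share of up to 60.0%. *Pdgfra* had 1 read in them. Without the mesenchymal DMSO cells the ratios of *Slc16a1* and *Pdgfra* were -1.88 and -1.65. *Acot7* had a mean of 34.2 RPM in DMSO alpha cells, of which cell 33, which also held a second hormone, gave 98.3%, and the log2 ratio of 0.88 was -3.46 without it. In GNF4877 alpha cells it had a mean of 27.7 RPM and a log2 ratio of 0.66, which was -0.47 without cell 42.

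Genes around the 10 were taken from lists. Of 24 genes of glucose entry, glycolysis and pyruvate use, 20 were within 2-fold between GNF4877 and DMSO Ins1-high cells. By direction alone 18 of the 24 were above and 5 below a log2 ratio of 0, against 7501 and 10354 of all 24113 genes, and 17 and 5 of those with a mean of 1 RPM or more, against 6137 and 7231 of 13368. The median was 0.49, which was 0.34 after rescaling. Past 2-fold, 3 were higher and 1 was lower, against 5.92% and 10.7% of all genes. After rescaling 2 were higher, against 5.59% of all genes. *Pfkp*, a phosphofructokinase gene, averaged 310 against 114 RPM in DMSO (log2 ratio 1.44), *Slc2a1* 156 against 61.9 RPM (1.32), and the enolase gene *Eno1* 1007 against 478 RPM (1.07). Each of the 3 stayed past 2-fold whichever cell was left out. The lower gene was *Slc16a3*, and without DMSO cells 24 and 46 no gene of the list was lower. *Pfkp* and *Slc2a1* were past 2-fold also among cells without *Ccnb1*, both at a log2 ratio of 1.47. There *Pfkm*, another phosphofructokinase gene, and *Slc16a3* were lower, at -1.24 and -1.56, and at -1.25 and -1.04 without DMSO cell 24.

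Among the other disallowed genes and the progenitor genes, several low values rested on DMSO cells 24 and 46, the cells with mesenchymal transcripts. Of 17 other disallowed genes, 1 was higher and 7 were lower in GNF4877 Ins1-high cells, against 5.92% and 10.7% of all genes, with a median log2 ratio of -0.63. Without those 2 cells 3 were higher and 5 were lower, against 6.26% and 9.86% of all genes, and the median was -0.05. With all cells the higher one was *Smad3* (2.33), a mediator of TGF-β signals, whose mean of 8.19 RPM came from GNF4877 cell 72. *Arhgdib* and *Zfp36l1* had log2 ratios of -2.73 each, which were 0.01 and -0.36 without DMSO cells 24 and 46, and *Tgm2* (-2.11) was at -0.96 without DMSO cell 79. Without cells 24 and 46 and with each further cell left out in turn, no gene of the list stayed higher by 2-fold and 2 stayed lower. These were *Igfbp4* (-1.86, and -1.58 without the 2 cells), read in 77 of 78 DMSO and 55 of 59 GNF4877 cells, and *Lmo4* (-1.59 and -1.56), read in 49 and 11 cells.

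Of 17 progenitor and dedifferentiation genes, 1 was higher and 3 were lower, against the same 5.92% and 10.7% of all genes, with a median of -0.32. After rescaling 5 were lower, against 13.4% of all genes. Without DMSO cells 24 and 46, 1 was higher and 1 was lower, against 6.26% and 9.86% of all genes, and the median was 0.00. *Vim*, which encodes the filament protein vimentin, averaged 2.25 against 45.9 RPM (-3.85), and those 2 cells held 97.0% of the DMSO sum. Without them *Vim* averaged 1.41 RPM in DMSO and the ratio was 0.43, but it was -0.58 when GNF4877 cell 31 was left out as well, so the direction hung on single cells. *Aldh1a2* (-1.19) was read in 1 of them alone and in no GNF4877 Ins1-high cell, and its ratio was 0.00 without it. *Myc* (-1.40) remained lower, at -1.35. *Gast*, the gastrin gene, was higher (2.03), and -0.57 without GNF4877 cell 78.

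Of 9 corepressors of REST 4 were lower and none of the 9 was higher, against 10.7% of all genes lower and 17.2% of those with a mean of 1 RPM or more. Among the 4 were the histone deacetylase gene *Hdac2* with 6.36 against 33.2 RPM (-2.21), *Rcor3* (-1.52) and *Ehmt2* (-1.46). The count was the same without DMSO cells 24 and 46, against 9.86% of all genes lower, and 3 of the 4 stayed lower whichever cell was left out. Of 14 genes that REST is known to repress 2 were lower (14.3%), *Cplx2* (-1.58) and *Mapk8ip1* (-1.25), a share near that of all genes, and the median was -0.28. Of 9 other thioesterase genes 2 were lower, *Acot1* (-1.08) and *Acot2* (-1.01), against the 10.7% of all genes, and both were within 2-fold without DMSO cell 42, at -0.83 and -0.92. Of 3 PDGF genes *Pdgfrb*, which is also in the mesenchymal list, was lower, at 0.0341 against 23.9 RPM (-4.59). DMSO cells 24 and 46 held 99.1% of its DMSO sum, and the ratio was -0.24 without them.

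**Figure D3:**
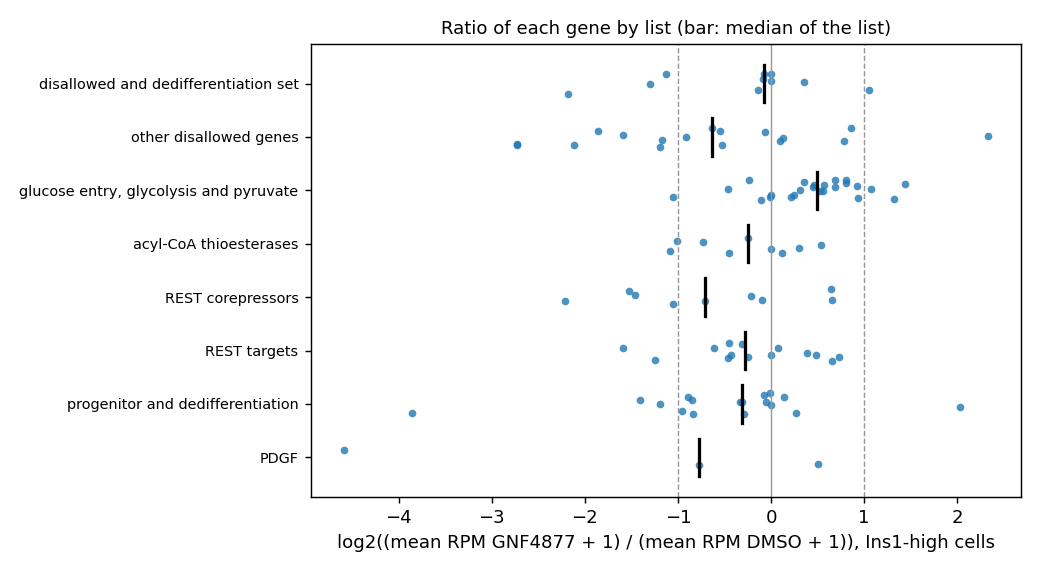
Log2 ratio of group means with 1 RPM added, GNF4877 over DMSO in Ins1-high cells, for each gene of the 10 and of the lists around them, with 1 point per gene, a bar at each median and dashed lines at 2-fold. The glycolysis genes lie mostly above 0, with a median of 0.49, and the other disallowed genes have a median of -0.63, which is -0.05 without the 2 DMSO cells with mesenchymal transcripts.

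In GNF4877 cells with *Ccnb1*, 5 of 9 thioesterase genes were lower than in cells without it and none of the 9 was higher, against 13.6% lower among all genes and 23.9% among genes with a mean of 1 RPM or more. The median log2 ratio was -1.11. Of the 5, 4 stayed lower whichever cell was left out. The largest differences were in *Acot3* (-3.01), *Acot8* (-2.49), *Acot2* (-2.11) and *Acot13* (-1.29). Of 17 progenitor and dedifferentiation genes 4 were higher and 2 lower, against 9.85% and 13.6% of all genes. Whichever cell was left out, 0 stayed higher and 1 stayed lower. Of 14 genes that REST is known to repress 3 were higher, 2 of them whichever cell was left out, and 1 was lower. Of 17 other disallowed genes 3 were higher and 3 lower, and none stayed so whichever cell was left out. Of 9 corepressors of REST 2 were higher and 3 lower, and 1 stayed lower. Of 3 PDGF genes *Pdgfa* was lower (-3.67), whichever cell was left out. The glycolysis list had 3 of 24 genes higher, with a median of -0.00. The share higher was 9.85% of all genes and 18.2% of those with a mean of 1 RPM or more. *Pdk1* (1.98) stayed past 2-fold whichever cell was left out, whereas *Pfkm* (2.12) was at -1.05 without GNF4877 cell 16 and *Slc16a3* (1.67) at -0.01 without GNF4877 cell 30. Between alpha and Ins1-high cells that list had 16 of 24 genes lower and 1 higher in alpha cells of GNF4877-treated islets, against 19.2% of all genes lower and 33.6% of those with a mean of 1 RPM or more. In DMSO 11 of 24 were lower (45.8%) and 1 higher, against 26.8% of all genes lower. Of the 22 with a mean of 1 RPM or more 11 were lower (50%), against 45.03% of all such genes. The medians of the 24 genes were -1.20 in GNF4877-treated islets and -0.89 in DMSO. After rescaling, 11 were lower and 2 higher in GNF4877-treated islets, against 16.8% and 10.4% of all genes, with a median of -0.87. In DMSO 9 were then lower and 2 higher, against 23.5% and 9.89%, with a median of -0.45. Without cell 42 the median in GNF4877-treated islets was -1.68. Besides *Slc2a2*, the lower genes included *Pfkp* (-1.99) and *Pdk1* (-1.95) in GNF4877-treated islets, and *Slc2a1* (-3.95) and *Pdk1* (-3.73) in DMSO.

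The promoters of *Ldha* and *Slc16a1* are shown because these genes act at the same step, the making and export of lactate, and because, of the promoters found, only theirs held the E-box CACGTG. Sequences are from RefSeq on build GRCr8, from 250 bases before to 50 after the transcript start, and were found for 9 of the 10 genes, all but *Sox9*. CACGTG is its own reverse complement and was present in 6.42% of 33469 promoters of 300 bases. Its part ACGTG, the core of the hypoxia response element, was searched on both strands and was present in the promoters of 3 of the genes, *Ldha*, *Slc16a1* and *Hk1*, and in 19.3% of all promoters. The *Ldha* window lies at chr1:106507842-106508141 and that of *Slc16a1* at chr2:194812410-194812709, both on the plus strand. The capitals mark CACGTG, whose first base is 87 bases before the start in *Ldha* and 216 bases before it in *Slc16a1*. Both windows were rich in G and C, at 66.7% and 72.7%, against a median of 51.7% for all promoters. A match is a description of the letters, and binding was not measured.
Ldha: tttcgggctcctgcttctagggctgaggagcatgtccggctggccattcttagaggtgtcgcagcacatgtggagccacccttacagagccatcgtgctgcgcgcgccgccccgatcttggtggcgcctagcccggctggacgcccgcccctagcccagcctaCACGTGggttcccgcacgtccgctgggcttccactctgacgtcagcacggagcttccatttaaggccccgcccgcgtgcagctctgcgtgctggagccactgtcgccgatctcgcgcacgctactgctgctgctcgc
Slc16a1: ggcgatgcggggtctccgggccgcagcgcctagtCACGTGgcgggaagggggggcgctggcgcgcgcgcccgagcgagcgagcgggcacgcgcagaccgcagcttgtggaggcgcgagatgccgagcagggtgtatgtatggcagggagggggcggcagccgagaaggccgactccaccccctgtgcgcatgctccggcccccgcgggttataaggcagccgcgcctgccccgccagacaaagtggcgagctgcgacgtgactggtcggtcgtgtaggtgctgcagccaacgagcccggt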

How the data were processed

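Single-cell cDNA was made with the SMARTer kit, libraries with Nextera XT, and sequencing was on a HiSeq. The authors deposited RPM values for 27586 transcripts in 170 cells. The submitters' processing notes name CASAVA 1.8.2, BWA 0.5.9 and SAMtools 0.1.19. The methods name a mouse transcriptome, whereas the transcripts in the matrix carry rat RefSeq names. Of the deposited RPM values, 69.7% were at 0.01 and were set to 0. Values of up to 20 reads were whole multiples of 1 read within 0.1 read in 100% of cases, which gave the reads behind each value.

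Transcripts with the same symbol were summed. The 10 genes and the lists were chosen with earlier results of these data known. Group means were compared as log2 ratios with 1 RPM added, with no test because each treatment is 1 sample. Named genes were the 10, reference genes (*Ldhb*, *Slc2a2*, *Slc16a3*, *Ins1*, *Ins2*, *Gcg*, *Ccnb1*), the 3 genes most like *Ldha*, and of each list the genes past 2-fold in a comparison, up to 4 with the largest ratio. A few genes that this rule takes are not reported here. *Gapdh*, *Spp1*, *Col1a1*, *Lum*, *Ppy*, *Mafa*, *Igfbp4* and *Lmo4* were named after their values were seen, as were single cells.

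To compare shares, cells were thinned to 100000 reads, leaving out 3 shallower cells of each treatment. Doublets were not removed. A fold at 0 reads was limited by 3 reads, and a share at 0 cells by 3 cells over the number of cells. Alternatives were other *Ins1* and *Ccnb1* thresholds, cells with a second hormone left out, pseudocounts of 0.1 and 10 RPM, means of log2 values, rescaling to the listed reads without the hormones, the highest transcript of a symbol, thinning, a filter on low genes, a level of 10 RPM for shares, and each cell left out in turn. Calculations ran in Python 3.11.15 with pandas 2.3.3 and numpy 2.4.6, intervals came from scipy 1.17.1 and plots from matplotlib 3.10.9. The ratio calculation was tested on simulated data that held counting error only. With no other spread between simulated cells, it does not cover ratios set by single cells.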

Additional observations from a re-analysis of the deposited data

Results flagged for a closer look

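Among the cells in neither class, 2 with mesenchymal transcripts had levels of the 10 genes above the highest DMSO Ins1-high cell. DMSO cell 29, with *Ppy*, the pancreatic polypeptide gene, at 45020 RPM, had *Ldha* at 3514 RPM (highest DMSO Ins1-high cell 1259 RPM), *Slc16a1* at 372.2 RPM (173.6), *Pdgfra* at 268.7 RPM (159.0) and *Hk2* at 37.1 RPM (5.59). It also had *Rest* at 10.3 RPM from 13 reads, where no DMSO Ins1-high cell had a read. GNF4877 cell 15, with *Ccnb1* at 607.5 RPM, had *Ldha* at 1745 RPM and *Rest* at 1.63 RPM from 3 reads. These cells enter no comparison.

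For 2 genes the ratio of alpha to Ins1-high cells was past 2-fold in both treatments but in opposite directions. The log2 ratio of *Slc16a1* was 1.73 in GNF4877-treated islets and -2.78 in DMSO, and that of *Sox9* was 2.89 and -1.23. *Hk1* also differed in direction (2.10 and -0.94), within 2-fold in DMSO. Its ratio was 0.00 in GNF4877-treated islets without cell 42, and 0.35 in DMSO without cell 46. The difference between treatments was not tested. The GNF4877 values of *Slc16a1* and *Sox9* rest on alpha cells 84 and 85, and only 5 alpha cells came from DMSO.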

How the results depend on the processing

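The counts of genes past 2-fold were small, and moved with the settings. The cause was not tested. For GNF4877 over DMSO Ins1-high cells, the 1 higher gene became 0 with *Ins1* of at least 10000 RPM, without cells with a second hormone, with 10 RPM added, after rescaling and after thinning, and 2 with 0.1 RPM added. The 3 lower became 0 with 10 RPM added or with means of log2 values. Without *Ccnb1*, the 0 higher became 1 at 10000 RPM, with 0.1 RPM or with means of log2 values. The 1 lower became 2 at 10000 RPM, without second hormones, with 0.1 RPM, after rescaling and after thinning, and 0 with 10 RPM or means of log2 values.

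For *Ccnb1* of at least 10 RPM over 0, the 1 higher became 2 at 10000 RPM or with means of log2 values, and 0 with any *Ccnb1* read, with 10 RPM added and after thinning. The 1 lower became 2 with *Ins1* of at least 100 RPM or 0.1 RPM added, and 0 with 10 RPM or means of log2 values. For alpha over Ins1-high cells in GNF4877, the 3 higher became 0 with 10 RPM or means of log2 values, and the 0 lower became 1 with 0.1 RPM or means of log2 values. In DMSO the 0 higher became 1 at 10000 RPM and after rescaling, and the 4 lower became 1 with 10 RPM and 0 with means of log2 values.

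With each cell left out in turn, the higher genes numbered 0 to 1, 0 to 2, 0 to 2, 2 to 4 and 0 to 1 in these 5 comparisons, and the lower genes 2 to 3, 1 to 2, 1 to 1, 0 to 1 and 3 to 5. Of the log2 ratios past 2-fold, those that changed direction were *Sox9* in GNF4877 over DMSO Ins1-high cells at *Ins1* of at least 100 RPM (0.43), and, in alpha over Ins1-high GNF4877 cells, *Slc16a1* and *Sox9*. At *Ins1* of at least 100 RPM, GNF4877 alpha cell 85 counted as Ins1-high too, and the value of 0.43 rests on it. With each cell left out in turn, *Slc16a1* ranged from -0.38 (without cell 84) to 2.44 and *Sox9* from -0.11 (without cell 85) to 2.98.

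The next 3 alternatives were chosen after seeing the data. Leaving out cells with mesenchymal markers, which was also done for the gene lists, made the lower genes in GNF4877 over DMSO Ins1-high cells 2, the higher genes without *Ccnb1* 2, the higher and lower genes in GNF4877 alpha cells 2 and 1, and the higher genes in DMSO alpha cells 1. For the lists, leaving out each cell in turn was likewise chosen after seeing the data. Leaving out cells with under 50% of mapped reads on listed transcripts made the lower genes without *Ccnb1* 2. Adding the 3 like loci to *Ldha* moved no ratio of *Ldha* by 1.5 times. The highest transcript of a symbol moved none of the 10 counts. Over all alternatives 14 of the 50 log2 ratios changed sign in at least 1 setting, 3 of them past 2-fold in the main setting and 11 within it. Among the 11 were *Sox9* without *Ccnb1* (-0.99, and 0.89 at *Ins1* of at least 100 RPM), *Acot7* with *Ccnb1* (0.82, and -0.64 without second hormones) and *Acot7* in DMSO alpha cells (0.88, and -3.41 without second hormones). The *Sox9* value of 0.89 again includes GNF4877 alpha cell 85 among the Ins1-high cells.

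Among genes with a mean of 1 RPM or more, the shares past 2-fold were 10.1% higher and 17.2% lower (GNF4877 over DMSO Ins1-high), 9.45% and 20.1% (without *Ccnb1*), 18.2% and 23.9% (*Ccnb1*), 13.7% and 33.6% (GNF4877 alpha) and 11.6% and 45.03% (DMSO alpha). No paired analysis was possible because neither treatment has more than 1 sample. Most of the 10 genes were read in few cells by few reads, so that 1 cell can set a group mean.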

Other observations

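*Acot7* had 2 transcripts in the matrix, read in 50 and 48 of the 170 cells and both in 43. In DMSO Ins1-high cells with 1 hormone, *Pdgfra* averaged 8.65 RPM over 53 cells, and in those with a second hormone 0.693 RPM over 25 cells, where no cell reached 10 RPM. The 53 cells include DMSO cells 24 and 46, which carry mesenchymal transcripts, and the 25 cells include neither. *Pdgfra* was at 159.0 and 104.0 RPM in these 2 cells, so the mean of the 53 cells rests largely on them. *Ldha* averaged 101 RPM in the 53 cells and 96.7 RPM in the 25 cells. It was at 1259 and 509.5 RPM in cells 24 and 46, so the direction of its difference rests on them. Whether these differ was not tested.

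The 9 genes with a promoter sequence had 11 of them, since *Hk1* and *Acot7* had a pair each. Of the 11, 8 held more CpG dinucleotides than the median promoter, which held 7, with 29 in *Ldha* and 39 in *Slc16a1*.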
